A study of Homo sapiens with 5 samples.

Results

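In A549 cells, a human lung carcinoma line of epithelial origin, the introns of 1132 genes had no reads in any of 3 libraries made without a random-sequence oligonucleotide and at least 10 reads in each of 2 libraries made with it. They were 5.14% of the 22009 gene rows of the deposited intron table and 11.7% of the 9643 rows at 0 in all 3 libraries without the randomer. Of those 9643 rows, 5415 (56.2%) had 0 counts in both randomer libraries too, and 3096 had randomer counts that fell short of the rule. Genes called read with the randomer are those that met the rule, so the other silent rows include these 3096. The rule used the intron counts of all 5 libraries, which means that the genes were chosen by these values, and the counts are described and not tested. Silent refers here to these intron counts alone, since some of the genes had exon counts without the randomer. Rows of genes whose symbol begins with KCN were left out, 18 of which met the same counts. The libraries held ribosomal-RNA-depleted total RNA from cells transfected with Lipofectamine 2000, and each of the 5 groups was 1 library. One group received Lipofectamine alone for 16 h (the mock library), a control oligonucleotide at 50 nM was given for 9 h or for 16 h, and a 23-base randomer, labelled 23N, was given at 50 nM for 9 h or for 16 h. The series title concerns inverted repeats in introns and between genes that form double-stranded RNA and activate RNase L. The sources used here do not give the sequence or chemistry of the oligonucleotides, or whether the 9 h and 16 h samples came from separate cultures. With 1 library a group, values at one time cannot be checked against replicates, and intervals cover counting error only.

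Introns are transcribed with the rest of a gene, cut out by splicing and usually degraded within the nucleus, so total RNA holds far fewer intron reads per base than exon reads for a gene that is transcribed and spliced. At the end of a gene the RNA is cleaved at the polyadenylation site and RNA polymerase II normally leaves the DNA soon afterwards. A count listed under a gene's symbol shows RNA that lies within that gene's introns, and not where that RNA began. RNase L is a ribonuclease of the interferon response that is switched on by 2-5A, a product of oligoadenylate synthetases that sense double-stranded RNA.

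Total exon counts were 1957361 in the mock library, 2629053 and 2596995 with the control oligonucleotide at 9 h and 16 h, and 1792192 and 1476223 with the randomer at 9 h and 16 h. Total intron counts were 603142, 740408 and 773339 without the randomer, and 1768491 and 1947593 with it. The randomer libraries therefore had the fewest exon counts and the most intron counts. Counts of single genes are given unscaled unless a scale is named, so they carry this difference in depth. The 9 epithelial and airway marker genes summed to 4579, 5437 and 5328 CPM (counts scaled to the library's exon total) in the mock and control libraries and 4030 and 2851 with the randomer, with KRT19, EPCAM and SFTPB at 0 exon counts in the 3 libraries without the randomer. KRT19, a keratin of simple epithelia, was itself among the 1132 genes. The 6 leukocyte markers went from at most 7.32 to 60.8 and 141 CPM, 5 endothelial markers from 0 to 39.1 and 61.0, and 5 muscle markers from 0 to 19.5 and 27.8. The 6 fibroblast markers summed to 596, 561 and 433 CPM without the randomer and 319 and 181 with it, and the 5 neuron markers to 46.0, 40.3 and 37.4 without it and 38.5 and 21 with it. The sums thus went up in some lists and down in others. Members of these marker lists, such as CD79A, VWF, TEK and TNNT2, were themselves among the 1132 genes, and whether other cells contributed to the counts was not tested. In bulk RNA, fewer cells of a type and less RNA per cell cannot be told apart.

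The arrangement of these genes on the chromosome is shown for those behind PTBP1, which encodes a splicing regulator, and behind PHLDA3, a target gene of p53. PTBP1 and PHLDA3 were chosen after their values were seen. The 250 bases before the annotated start are printed for PTBP1 and for the genes behind both that had an entry, from RefSeq (GRCh38.p14), because they set the start of an active gene beside the starts of genes whose introns had no reads without the randomer. Capitals mark every CG dinucleotide. The windows are chr19:797202-797451 (plus strand) for PTBP1, chr19:827587-827836 (plus) for AZU1, chr19:840749-840998 (plus) for PRTN3, chr19:859414-859663 (plus) for CFD, chr1:201377681-201377930 (minus) for TNNT2 and chr1:201399325-201399574 (minus) for LAD1.
PTBP1: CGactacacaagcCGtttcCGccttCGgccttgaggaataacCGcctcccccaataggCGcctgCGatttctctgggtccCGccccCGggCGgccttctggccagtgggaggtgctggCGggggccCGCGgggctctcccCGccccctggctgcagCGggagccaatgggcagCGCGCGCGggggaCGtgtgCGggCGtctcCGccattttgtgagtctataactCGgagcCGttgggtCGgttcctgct
AZU1: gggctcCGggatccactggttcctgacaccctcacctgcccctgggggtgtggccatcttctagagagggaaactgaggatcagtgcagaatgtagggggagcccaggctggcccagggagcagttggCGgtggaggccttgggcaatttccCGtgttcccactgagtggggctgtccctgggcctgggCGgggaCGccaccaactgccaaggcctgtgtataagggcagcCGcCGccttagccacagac
PRTN3: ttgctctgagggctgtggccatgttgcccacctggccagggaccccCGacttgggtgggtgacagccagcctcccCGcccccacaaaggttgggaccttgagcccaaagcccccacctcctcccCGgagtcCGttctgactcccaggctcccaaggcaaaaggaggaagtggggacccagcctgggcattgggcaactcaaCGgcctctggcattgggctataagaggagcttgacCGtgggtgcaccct
CFD: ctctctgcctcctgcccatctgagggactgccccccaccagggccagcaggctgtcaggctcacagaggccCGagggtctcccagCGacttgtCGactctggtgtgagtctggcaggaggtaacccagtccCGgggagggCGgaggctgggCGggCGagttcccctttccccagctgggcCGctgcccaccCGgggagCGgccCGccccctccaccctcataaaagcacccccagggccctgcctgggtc
TNNT2: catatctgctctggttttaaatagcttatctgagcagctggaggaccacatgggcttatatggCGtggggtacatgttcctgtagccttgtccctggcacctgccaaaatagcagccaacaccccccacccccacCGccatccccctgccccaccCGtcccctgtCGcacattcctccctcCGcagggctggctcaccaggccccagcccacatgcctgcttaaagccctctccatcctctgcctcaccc
LAD1: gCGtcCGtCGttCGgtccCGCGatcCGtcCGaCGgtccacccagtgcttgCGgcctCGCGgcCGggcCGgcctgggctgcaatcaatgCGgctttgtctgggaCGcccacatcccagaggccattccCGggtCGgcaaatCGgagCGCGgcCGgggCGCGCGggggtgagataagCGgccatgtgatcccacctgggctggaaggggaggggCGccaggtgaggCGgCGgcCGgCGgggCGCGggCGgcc
PTBP1 had 26 CG dinucleotides in this window, while AZU1 had 7, PRTN3 had 6, CFD had 11 and TNNT2 had 5. LAD1, with 34, was the exception.

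AZU1, PRTN3, ELANE and CFD lie one after another on the strand of PTBP1, downstream of its end. AZU1 (azurocidin), PRTN3 (proteinase 3) and ELANE (neutrophil elastase) encode proteins of neutrophil granules, and CFD encodes complement factor D. PTBP1 itself had 1135 exon counts in the mock library, 1965 and 1693 with the control oligonucleotide, and 1360 and 777 with the randomer at 9 h and 16 h. The introns of the 4 genes behind it had 0 counts in all 3 libraries without the randomer. AZU1, 12.8 kb from the end of PTBP1, had 22 and 39 intron counts with the randomer at 9 h and 16 h. PRTN3, at 28.6 kb, had 18 and 87, and ELANE, at 38.7 kb, had 33 and 80. CFD, at 47.3 kb, had 64 and 57, so that 3 of the 4 had the higher count at 16 h. Per kb of intron, AZU1 had 4.28 and 7.59 counts, PRTN3 had 2.97 and 14.3, ELANE had 7.85 and 19 and CFD had 23.1 and 20.6, against 42.5 and 44.6 in the introns of PTBP1. AZU1, the nearest to PTBP1, thus had fewer per kb than CFD, the farthest. Exon counts of AZU1 were 48 and 34 with the randomer and 0 without, those of PRTN3 were 0 and 4, and those of ELANE were 17 and 34. CFD had 12 exon counts with the control oligonucleotide at 16 h, and 2 and 16 with the randomer.

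Behind PHLDA3 on its strand lie TNNI1 and TNNT2, which encode the slow skeletal troponin I and cardiac troponin T of muscle thin filaments, and LAD1, which encodes ladinin, a protein of basement membranes. PHLDA3 had 51 exon counts in the mock library, 111 and 117 with the control oligonucleotide, and 57 and 85 with the randomer. TNNI1, 34.5 kb from its end, had 173 and 255 intron counts with the randomer, LAD1 at 64.5 kb had 337 and 304, and TNNT2 at 86.6 kb had 431 and 455. Per kb of intron, TNNT2 reached 37.5 and 39.6 counts, close to the 43.1 and 40.8 of PHLDA3, with TNNI1 at 9.31 and 13.7 and LAD1 at 14.5 and 13.1. LAD1 and TNNT2 overlap in the annotation used, so some of their reads may be counted for either. Exon counts were 75 and 113 for TNNI1, 38 and 60 for LAD1, and 25 and 26 for TNNT2 with the randomer, and 0 for all 3 without it.

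**Figure D1:**
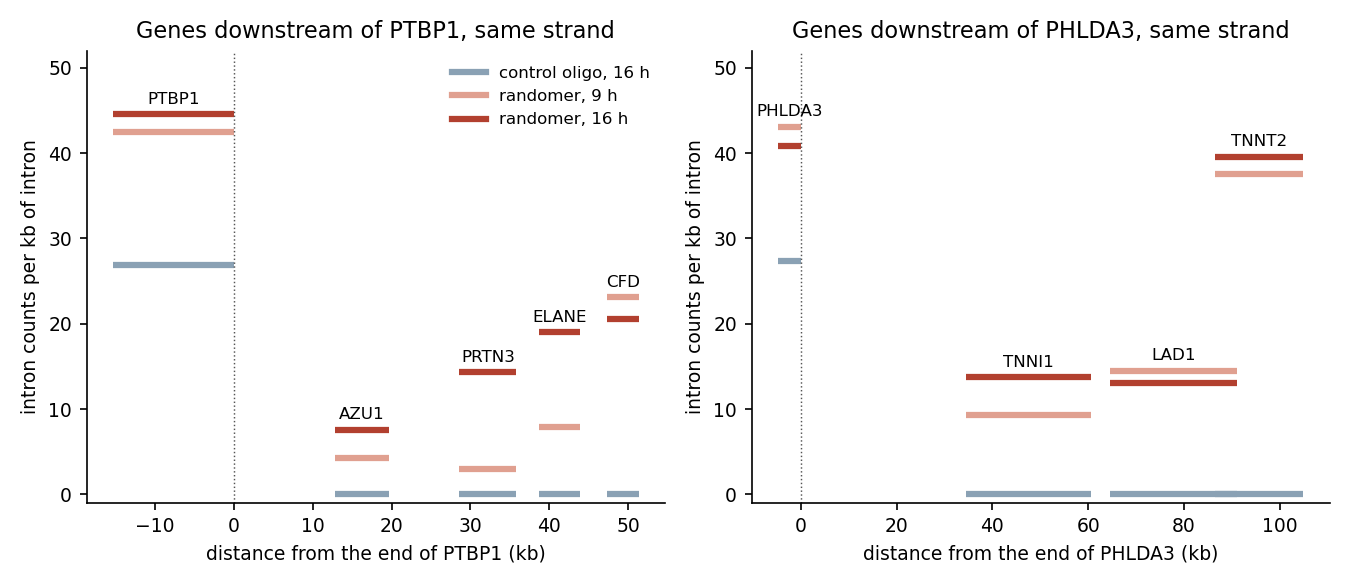
Intron counts per kb of intron (vertical axis) against the distance in kb from the end of PTBP1 (left) and PHLDA3 (right), for every intron row on the same strand that starts within 100 kb behind them. Each bar spans a gene. The genes behind PTBP1 and PHLDA3 are at 0 with the control oligonucleotide at 16 h and between 2.97 (PRTN3 at 9 h) and 39.6 (TNNT2 at 16 h) with the randomer.

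The same arrangement was common among the 1132 genes. Of these, 1016 were matched to GENCODE 29, and a gene was called active when its exon counts summed to 50 or more over the 3 libraries without the randomer, a measure that the rule did not use. An active gene on the same strand ended within 100 kb upstream of the start of 643 of the 1016 genes (63.3%). An active gene lay within 100 kb upstream on the opposite strand of 33.3%, downstream on the same strand of 35.9% and downstream on the opposite strand of 31.2%. Among the other silent rows these shares were 22.5%, 23.3%, 26.4% and 27.4% in the same order. Upstream on the same strand, the genes that met the rule therefore stood 40.8 percentage points above the other silent genes. In the 3 other positions they stood 3.8 to 10 points above them. Genes with intron reads in at least 1 library without the randomer had 42.7%, 38.4%, 40.9% and 38.2%, a narrower range over the 4 positions. The contrast is a description over genes, many of which are neighbours, and no test was made of it.

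**Figure D2:**
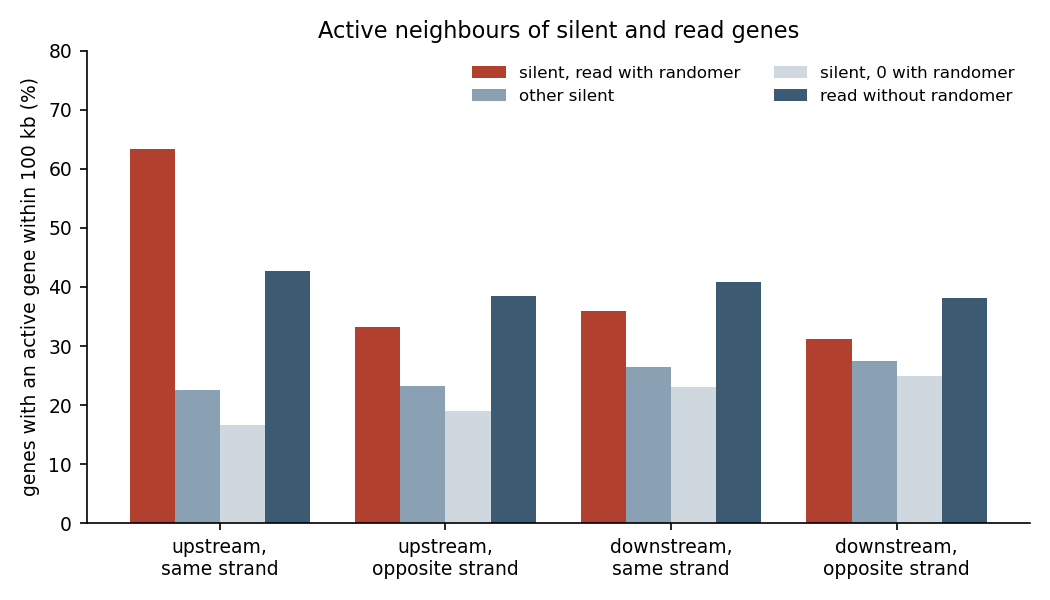
Share of genes (%) with an active gene within 100 kb in each of 4 positions relative to the gene. Bars compare the silent introns that met the rule (read with the randomer) with other silent introns, with silent introns at 0 also with the randomer, and with introns read without it. The first group reaches 63.3% upstream on the same strand, against 22.5%, 16.6% and 42.7%.

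Overlap with an active gene did not set the genes apart, since 11.5% of them overlapped one, against 11.9% of the other silent genes. Among genes that overlapped no other gene, the share with an active gene upstream on the same strand was 64.6%, against 35.7%, 39.8% and 34.5% in the other positions. With chromosomes 16, 17, 19, 20 and 22 left out, it was 59.9% against 19.7% of other silent genes. Among genes with 10 to 50 kb of intron, it was 67.8% against 21.2%. The 643 genes stood behind 582 distinct active genes, and 53 of these active genes had 2 or more of the silent genes behind them, which held 114 genes together. No active gene had more than the 4 behind PTBP1. The median exon count of the upstream active genes was 88.0 in the mock library, 128.0 and 127.0 with the control oligonucleotide, and 111.0 and 88.0 with the randomer, for those found in the exon table under the same symbol. These are raw counts from libraries of unequal depth. Exon totals were 2629053 and 2596995 with the control oligonucleotide but 1792192 and 1476223 with the randomer. The medians were not scaled to these totals, so no rise or fall is read from them.

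The share of silent genes that met the rule fell with distance from the upstream active gene on the same strand. It was 30.4% at 0 to 10 kb, 32.7% at 10 to 30 kb, 24.9% at 30 to 100 kb, 12.7% at 100 to 300 kb and 3.5% beyond 300 kb. By distance to an active gene downstream on the same strand it ran from 18.5% through 18%, 14.1% and 12.4% to 10.1%. The gradient was thus steeper on the upstream side. Within the genes that met the rule, intron counts per kb at 9 h fell with upstream distance. Their median went from 2.52 at 0 to 10 kb through 1.67, 1.35 and 0.792 to 0.406 beyond 300 kb. They fell with distance in the other positions too, from 2.07 to 0.828 for active genes downstream on the same strand. Intron length rose over the upstream distances, from a median of 18 kb to 68.7 kb, and the part of length in the fall was not tested. The rule asked for 10 or more of these same counts, so nothing is read from the fall in counts per kb.

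**Figure D3:**
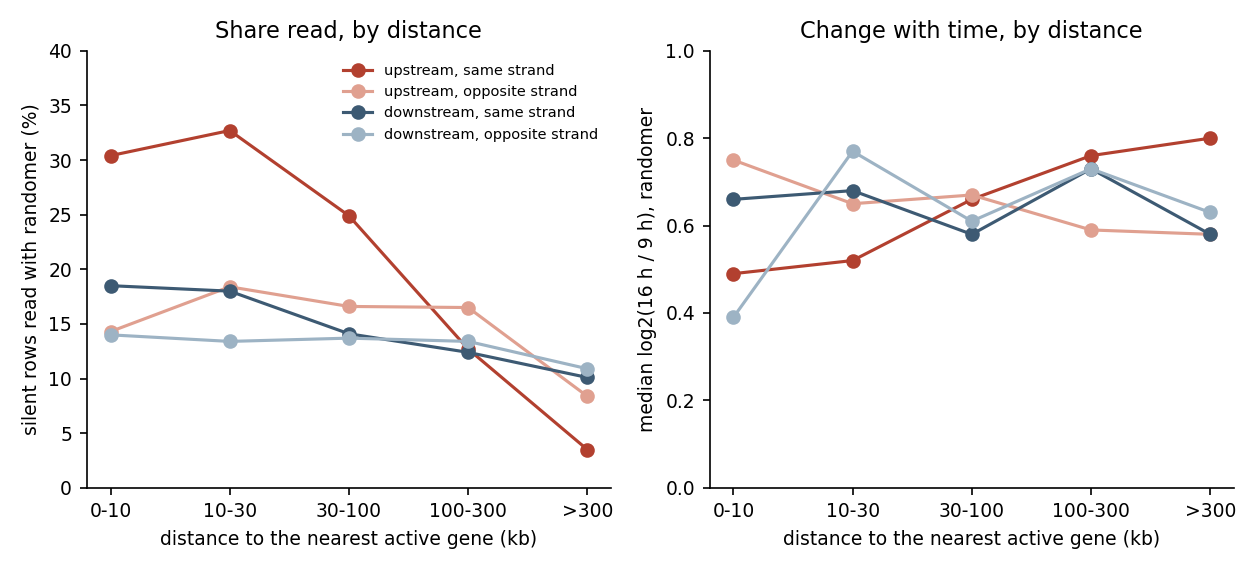
Left, share of silent intron rows (%) that met the rule (read with the randomer) by distance in kb to the nearest active gene in each of 4 positions. Right, median log2 ratio of 16 h to 9 h counts with the randomer, relative to exon totals, in the same bins. For active genes upstream on the same strand the share falls from 30.4% to 3.5% while the ratio goes from 0.49 to 0.80.

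With the randomer, the 1132 rows held 54740 intron counts at 9 h, 3.1% of the library's intron counts (95% exact binomial interval 3.07% to 3.12%), and 73524 at 16 h, 3.78% (3.75% to 3.8%). The median count was 30 at 9 h (quartiles 17 and 52, highest 643) and 39 at 16 h (22 and 77, highest 858). Taking the smaller of the 2 counts, 453 genes had 10 to 19, 433 had 20 to 49, 164 had 50 to 99 and 82 had 100 or more. The 10 highest genes held 7.69% and 6.56% of these counts, so the reads were spread over many genes. Just inside the rule, 71 genes had a smaller count of 10, with medians of 10 and 13, such as ABI3BP with 10 and 22. Just outside it, 72 had a smaller count of 9, with medians of 9 and 12, such as ACTG2 with 9 and 10. The opposite pattern, 0 in both randomer libraries and 10 or more in the 3 others, was met by 3 genes, CACNB3, PCBD1 and TMED1, which were 0.0518% of the 5797 rows at 0 with the randomer. In edgeR's quasi-likelihood test of intron counts, all 1132 genes were tested and 902 were called higher with the randomer, beside 47.8% of all 11983 rows tested, with 0.0501% of those rows called lower. With the intron table's own library sizes, 1770 rather than 5725 of these rows were called higher. The rule used that contrast, so nothing is read from this count.

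The highest count was that of PEBP4, a phosphatidylethanolamine-binding protein, with 643 intron counts at 9 h and 858 at 16 h. PEBP4 overlaps an active gene, as do SLC5A10, SOX6, GRIK5, ATP2A1 and DNAH11 among the genes named here, and reads of such genes may be shared. PEBP4 starts 20.1 kb behind TNFRSF10B, a TRAIL receptor, whose exon counts were 709 in the mock library, 709 and 832 with the control oligonucleotide and 806 and 584 with the randomer. ITGA9, an integrin alpha subunit, had 517 and 777 counts and lies 85.4 kb behind GOLGA4. Of the 20 genes with the highest smaller count, 16 had an active gene within 100 kb upstream on the same strand, against 7, 7 and 5 in the other positions. IL34, which encodes a ligand of the CSF1 receptor, had 522 and 419 counts and lies 2.23 kb behind SF3B3, a splicing factor gene with 1416 to 3186 exon counts. Another active gene, MTSS1L, lies 0.522 kb downstream of IL34 on the opposite strand. SNX31, a sorting nexin gene with 380 and 387 counts, lies 22.4 kb behind PABPC1, a poly(A)-binding protein gene with 1421 to 3334 exon counts. GPR133, an adhesion receptor gene with 297 and 271 counts, lies 76.2 kb behind RAN, which encodes the nuclear transport GTPase. The upstream active genes ranged widely in level, since the one behind which SRL lies, TFAP4, had 6 to 33 exon counts per library. SRL, which encodes sarcalumenin of the sarcoplasmic reticulum, had 345 and 333 intron counts.

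VWF, the von Willebrand factor gene of endothelium, had 348 and 401 intron counts, with the nearest upstream active gene on its strand 204 kb away. GRM4, a metabotropic glutamate receptor gene, had 291 and 533, with that gene 432 kb away. NDRG2 had 414 and 297, with HNRNPC 138 kb upstream, and it overlaps an active gene. RNU6-71P, a U6 pseudogene with no annotated intron in GENCODE, had 259 and 250. These 4 of the 20 thus had high counts with no active gene within 100 kb upstream on their strand. By length, EFEMP2, an extracellular matrix protein gene that overlaps an active gene, had the most, at 98.6 and 147 counts per kb over 1.75 kb of intron. At 9 h, TNNT2 had 37.5 per kb and MMP25, a membrane-anchored matrix metalloproteinase gene, had 31.4. The median over 996 genes with at least 1 kb of intron was 1.1 at 9 h and 1.42 at 16 h.

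**Figure D4:**
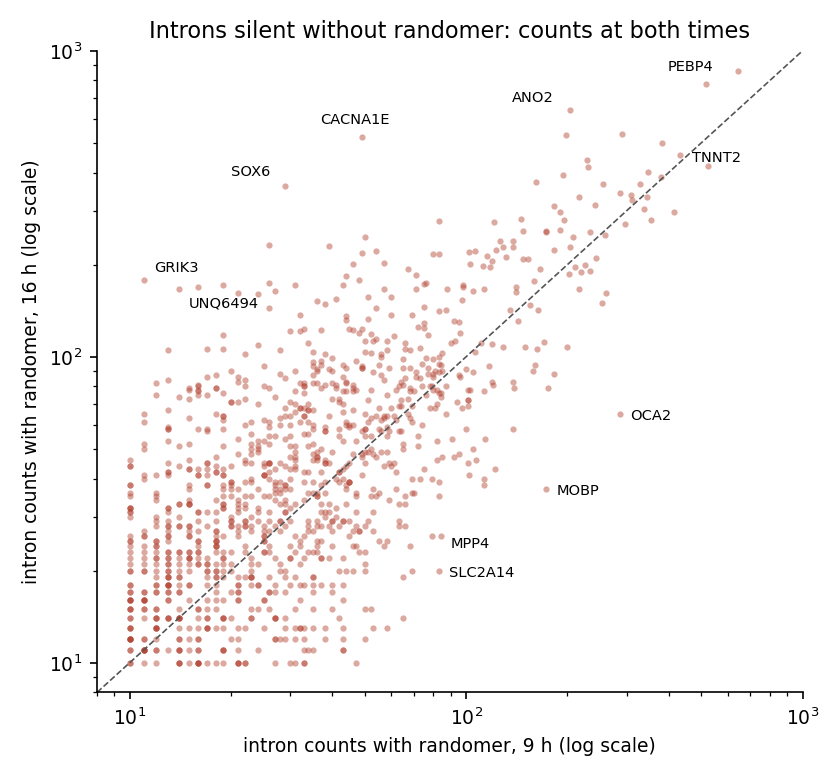
Intron counts with the randomer at 9 h (horizontal) and 16 h (vertical), both on log axes, with 1 point for each of the 1132 genes. All are at 0 in the 3 libraries without the randomer. The dashed line marks equal counts, with CACNA1E (49 and 523) above it and OCA2 (287 and 65) below.

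Relative to exon totals, 858 of the 1132 genes (75.8%) were higher at 16 h than at 9 h, with a median log2 ratio of 0.65. Other rows with 10 or more counts in both randomer libraries had a median log2 ratio of 0.38, with 69.7% of 9590 higher at 16 h. Relative to intron totals, the medians were 0.23 and -0.04, since the scaling moves all rows alike. Among rows with 50 or more counts in both randomer libraries, the medians relative to exon totals were 0.50 for the silent genes and 0.37 for the others, so the gap was smaller there. By distance from the upstream active gene on the same strand, the median log2 ratio was 0.49 at 0 to 10 kb, 0.52 at 10 to 30 kb, 0.66 at 30 to 100 kb, 0.76 at 100 to 300 kb and 0.80 beyond. In the other positions it showed no steady rise with distance, and was 0.75, 0.65, 0.67, 0.59 and 0.58 for active genes upstream on the opposite strand. Among genes with at most 50 kb of intron the upstream course was 0.53, 0.51, 0.69, 0.77 and 0.82. By intron length, the genes with more than 300 kb had a median log2 ratio of 1.09, against 0.50 to 0.66 in the shorter classes. Each time was 1 library, so these differences have no replicate check.

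The 4 highest and 4 lowest ratios are given among genes with 100 or more counts over both randomer libraries. GRIK3, a kainate receptor gene with 228 kb of intron, went from 11 counts at 9 h to 178 at 16 h, a log2 ratio of 4.30 (95% interval 3.42 to 5.32). SOX6, a transcription factor gene with 754 kb of intron, went from 29 to 361, and CACNA1E, a voltage-gated calcium channel gene with 472 kb, went from 49 to 523. Their nearest upstream active genes on the same strand ended 458 kb, 37.7 kb and 225 kb away. UNQ6494, a long noncoding RNA gene 280 kb behind SECISBP2, went from 14 to 167. The lowest ratios were those of OCA2, MOBP, SLC2A14 and MPP4. OCA2, a melanosome protein gene 11.7 kb behind HERC2, went from 287 to 65, a log2 ratio of -1.86 (-2.27 to -1.47). MOBP, a myelin protein gene 54.7 kb behind RPSA, went from 173 to 37. SLC2A14, a glucose transporter gene 28.1 kb behind its relative SLC2A3, went from 83 to 20, and MPP4 went from 84 to 26. SLC2A14 and SLC2A3 are close copies, so the counts of SLC2A14 are uncertain. Of the 8 genes, 3 of the 4 with the highest ratios had no active gene within 100 kb upstream on their strand, while OCA2, MOBP and SLC2A14 each had one.

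The genes belonged to many tissues, and the lists of gene families differed in the share of their silent rows that met the rule. Beside 11.7% of all silent rows, 18 of 61 silent sarcomere and muscle genes (29.5%) met the rule, as did 24 of 81 collagen and matrix genes (29.6%), 10 of 33 axonemal genes (30.3%) and 48 of 153 solute carriers (31.4%). ATP2A1, the calcium pump of fast muscle, had 171 and 112 intron counts at 9 h and 16 h, 4.19 kb behind SH2B1. MYBPC3, cardiac myosin-binding protein C, had 87 and 142, 66.1 kb behind PSMC3, a proteasome subunit gene. SPI1, which encodes the myeloid transcription factor PU.1, lies behind the same gene at 40.2 kb and had 117 and 93. The active gene MADD lies nearer to both, downstream on the opposite strand, at 1.37 kb from MYBPC3 and 24.8 kb from SPI1. SLC5A10, of the sodium-coupled sugar transporters, had 255 and 368, and DNAH2, an axonemal dynein heavy chain gene, had 138 and 228. COL5A3, a fibrillar collagen gene, had 182 and 310. Voltage-gated and calcium channels other than KCN genes had 15 of 58 (25.9%), including RYR1, the calcium release channel of skeletal muscle, with 233 and 256, and CACNA1B, the N-type calcium channel, with 208 and 247. ABC transporters had 7 of 20 (35.0%), integrins 3 of 10 and phosphodiesterases and adenylate cyclases 5 of 17 (29.4%).

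Shares near that of all silent rows were found for neurotransmitter receptors, with 10 of 79 (12.7%), for cadherins and protocadherins, with 8 of 65 (12.3%), and for orphan and adhesion G protein-coupled receptors, with 10 of 84 (11.9%). GRIK5, a kainate receptor gene of the first of these lists, had 198 and 530 intron counts. Leukocyte genes had 32 of 215 (14.9%) and WNT, FGF and BMP signalling genes 10 of 69 (14.5%). Synapse genes had 12 of 68 (17.6%). Lower shares were found for developmental transcription factors, with 6 of 130 (4.62%), for ZNF zinc finger genes, with 14 of 182 (7.69%), and for long noncoding and antisense genes, with 234 of 2690 (8.7%). POU2F2, of the transcription factors, had 119 and 110 counts 2.01 kb behind DEDD2. The lists are of unequal gene length and position, and none of these shares was tested. By chromosome, the share of matched silent rows that met the rule was 4.98% on the X chromosome and 5.51% on chromosome 18, while it was 18.2% on chromosome 19, 18.8% on chromosomes 14 and 17 and 20.9% on chromosome 16, beside 12.2% over all chromosomes.

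As genes, the 1016 matched rows had a median of 30.8 kb of intron and 8 introns in the longest transcript, while the other silent rows had 11.6 kb and 4 introns. Genes read without the randomer had 32.4 kb and 8 introns. Protein-coding genes made up 87.0% of the matched rows and 76.3% of the other silent rows. Longer introns offer more sequence in which to reach 10 counts, and the part of length in the membership was not tested. In the 250 bases before the start, 751 of the genes had a RefSeq window, with a median GC content of 61.2% and a median of 9 CG dinucleotides. The other silent rows had 55.6% and 6, and the rows read without the randomer 65.2% and 21. At least 1 CG was present in 97.7% of the windows and in 97.2% of those of all rows. The motif TATAAA, on either strand, was in 8.79% of the windows against 13.4% of the other silent rows and 8.1% of all rows. GGGCGG, on either strand, was in 47.4% against 35.9% and 55.6%, and CCAAT, on either strand, was in 30.9% against 34.5% and 34.2%. These windows thus lay between those of the other silent genes and those of genes read without the randomer in GC, CG count, TATAAA and GGGCGG, and below both in CCAAT.

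The exon rows of the same genes were found for 962 of the 1132. Without the randomer, 800 of them (83.2%) had 0 exon counts in all 3 libraries, and 18 had 50 or more in sum. With the randomer, 545 (56.7%) had exon counts at 9 h and 693 (72%) at 16 h, with medians of 4 and 7, and 184 had none in any of the 5 libraries. In edgeR's quasi-likelihood test of exon counts (randomer against control oligonucleotide, Benjamini-Hochberg adjusted p below 0.05), 107 of the 245 genes tested were called higher and 0 lower. Over all 11407 genes tested, 7.07% were called higher and 3.5% lower. Of the 245, 192 passed the filter on low counts through the randomer libraries alone and so had to differ, and nothing is read from their share. At an unadjusted p below 0.05, 0 of the 245 were lower, and DESeq2 called 0 lower. Since the 192 were tested because of their randomer counts, nothing is read from the absence of lower calls either.

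The balance of exon and intron counts per kb is given as a description. The genes were chosen on their intron counts and the active genes beside them on their exon counts, so the direction of this contrast was set in part by both choices and nothing is read from it. The ratio of exon to intron counts per kb had a median of 0.416 at 9 h and 0.817 at 16 h over 910 genes. In active genes read without the randomer, the median ratio was 13.4 in the mock library and 16.0 and 15.1 with the control oligonucleotide, and 5.85 and 4.04 with the randomer. Exon counts per kb were below intron counts per kb in 64.3% of the silent genes at 9 h and 55.7% at 16 h, against 8.16% and 12.1% of the active genes. With lengths from the longest transcript alone, the medians of the silent genes were 0.657 and 1.26, so that the 16 h median then lay above 1. No exon counts at all were seen at 9 h in 43.2% of the 910 genes and at 16 h in 27.8%. ALLC, an allantoicase gene, had 329 and 367 intron counts at 9 h and 16 h but 0 and 3 exon counts. SOX6 had no exon count in any library, and SPI1 and DNAH11, an axonemal dynein gene, likewise had none.

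**Figure D5:**
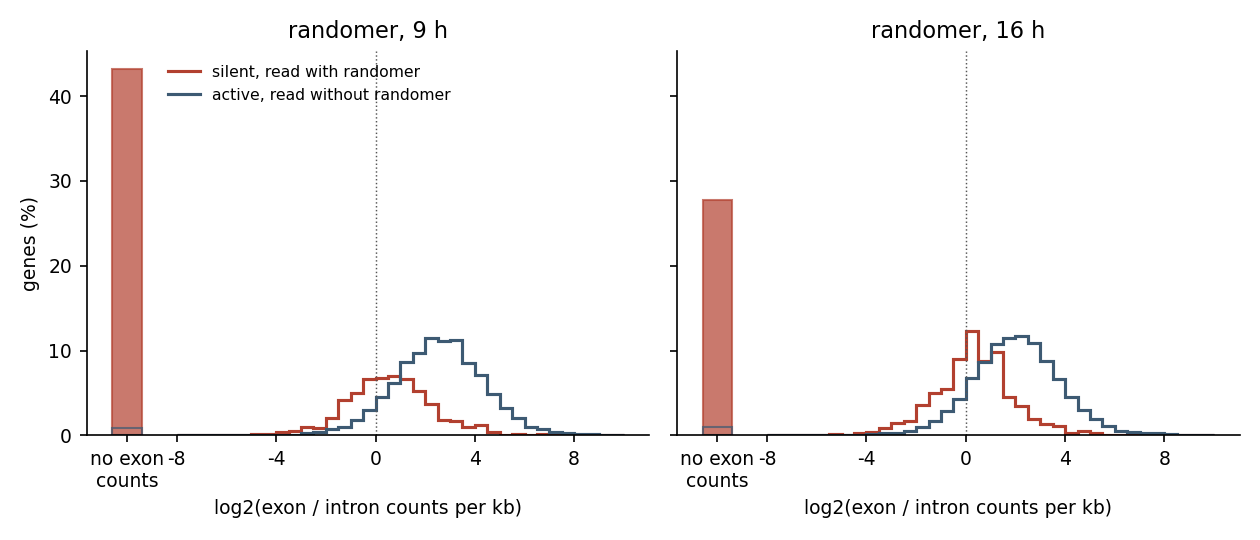
Share of genes (%) by the log2 ratio of exon to intron counts per kb with the randomer at 9 h (left) and 16 h (right), for the silent genes and for active genes read without the randomer. The bar at the left holds genes with no exon count, 43.2% and 27.8% of the silent genes. The remaining silent genes lie nearer to a ratio of 1 (log2 of 0) than the active genes, whose medians are 5.85 and 4.04. The direction of this contrast was set in part by how both groups were chosen, and nothing is read from it.

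Genes with the highest exon counts included EGR1. EGR1, an immediate early transcription factor gene, had 11 exon counts in the mock library, 11 and 18 with the control oligonucleotide, and 317 and 741 with the randomer at 9 h and 16 h, with 13 and 84 intron counts over 0.688 kb of intron. LOC100507351 had 151 and 166 exon counts with the randomer, 0 without it, and 26 and 35 intron counts. TLCD2 had 7, 17 and 20 exon counts without the randomer and 80 and 80 with it. IRGQ, a GTPase-family gene with 1.90 kb of intron, was read on exons in every library, with 236, 325 and 386 counts without the randomer and 363 and 322 with it, and had 34 and 11 intron counts. SERTAD1, a transcriptional coregulator gene, had 95, 116 and 170 exon counts without the randomer and 94 and 198 with it, and 37 and 94 intron counts. For IRGQ and SERTAD1 the intron reads thus appeared with the randomer while exon counts overlapped between libraries with and without it.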

How the data were processed

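Ribosomal-RNA-depleted total RNA of A549 cells was sequenced on an Illumina HiSeq 2000, per the labels' protocols. The authors deposited raw read counts for each gene symbol in an exon table and an intron table. The submitters' processing notes name TopHat2, HTSeq and hg19 with no version. The sources used here do not give the annotation or the strand setting, and overlapping, antisense and near-identical genes may share reads. After removal of 28 rows per table whose symbols had become dates, 23340 exon rows and 22009 intron rows remained.

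The 1132 genes, the gene lists and the comparisons were chosen with earlier results of these data known. A gene's fold limits and intervals use exon totals as library size, since intron totals move with the treatment. Exon and intron counts were tested with edgeR 4.0.16 (R 4.3.3) by the quasi-likelihood test on the 4 oligonucleotide libraries, with TMM factors of the exon table, time as an additive term, 1 residual degree of freedom, a filter of 10 counts in 2 of 5 libraries and Benjamini-Hochberg adjustment at 0.05. With time as a term, the p-values rest on how far the randomer effect differed between 9 h and 16 h, with information shared across genes. That spread may be technical. The procedure was tested on simulated counts. Symbols were matched to GENCODE 29 (GRCh38) directly or, for 41 of the 1132, through synonyms, giving intron lengths and the nearest active gene in 4 positions. Intron lengths, distances and overlaps rest on the GRCh38 coordinates of GENCODE 29, while the submitters' notes name hg19. Promoter windows are from RefSeq, GRCh38.p14. Genes named in the text are those with the highest counts, counts per kb, exon counts and time ratios, up to 4 of each list, and those behind PTBP1 and PHLDA3. Their distances are mostly given to the active gene upstream on the same strand, though some had a nearer one in another position. PTBP1 had 4 of the silent genes behind it, and no active gene had more. PHLDA3 had 3 and was not the only active gene with 3. PTBP1 and PHLDA3 were chosen after their values were seen, and TNNT2 and LAD1 behind PHLDA3 were among the 20 highest genes. Intervals of log2 ratios and shares are 95% and cover counting error only, since PCR copies are not independent molecules. A few genes are not reported here.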

Additional observations from a re-analysis of the deposited data

How the results depend on the processing

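Asking for 20 or 50 counts in both randomer libraries left 679 or 246 genes, asking for 10 at 16 h alone gave 2000, and keeping only genes that overlap no other gene left 415. Without the 10 highest genes the share of intron counts was 2.86% at 9 h and 3.53% at 16 h. The median log2 ratio of 16 h to 9 h was 0.23 relative to intron totals, 0.80 with TMM factors, 0.79 without RN45S and 0.50 among genes with 50 or more counts. Median intron length was 19.9 kb for genes with no overlapping gene. The share with an active gene upstream on the same strand was 67.1% or 50.2% with active set at 10 or 200 counts, 59.9% without chromosomes 16, 17, 19, 20 and 22, 67.8% for 10 to 50 kb of intron, and 14.1% or 44.8% at 10 or 50 kb. With the longest transcript the exon to intron ratio was 0.657 and 1.26. These settings of the neighbours and of the ratio were chosen after seeing the data. Without the time term 532 genes were called higher and 98 lower on exons, beside 806 and 399, and with the intron table's own sizes 1770 rather than 5725 introns were called higher. The cause of these moves was not tested, apart from the fewer genes each stricter rule keeps. Between 95 and 116 of the silent genes were called higher on exons under the 6 alternatives, of 245 tested, or of 773 without the filter. Over all genes, between 532 and 812 were called higher under the same alternatives, beside 7.07% of 11407 in the main setting. Most of the 245 (192) passed the filter through the randomer libraries alone, so nothing is read from these counts. Scaling randomer counts to the smallest control exon total was not run, since both randomer exon totals are smaller still. No paired analysis was possible because the labels give no replicate numbers, and the time term is the only link between libraries with and without the randomer. At a depth of about 1 count per kb, single introns are measured coarsely.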
